A study of Mus musculus with 24 samples.

Results

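Genes of the proteasome and its assembly factors were followed in the gastrocnemius muscle of mice carrying a subcutaneous tumour. The members were the protein-coding genes whose symbol is Psm, a letter from a to g and a number, which gave 48 of the 43346 genes in the table. The groups were female and male C57BL6 mice that received, at 7 weeks of age, either LLC1 cells, a mouse lung tumour line, or the vehicle PBS, and muscle was taken 3 weeks later. Each of the 4 groups held 6 libraries, and each title within a group carries a different number, some of which recur in other groups. They are called vehicle and LLC1 mice here, and a mouse is named by its group and title number, such as LLC1 male 1-5. The labels give no pooling, genotype or transgene. Spread between libraries is what the p-values are measured against.

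The 26S proteasome is the ATP-driven protease that degrades proteins tagged with ubiquitin, and it is a main route of myofibrillar protein loss when muscle wastes. Its 20S core is a barrel whose outer rings are alpha subunits (Psma genes) and whose inner rings are beta subunits (Psmb genes). Psmb5, Psmb6 and Psmb7 carry the active sites. The 19S cap holds ATPases (Psmc genes), which unfold the substrate, and non-ATPase subunits (Psmd genes), which bind and remove ubiquitin. In immune cells, and after interferon in other cells, Psmb8, Psmb9 and Psmb10 take the place of Psmb5, Psmb6 and Psmb7 and form the immunoproteasome, which favours peptides for antigen presentation. Psme genes encode other activators of the core, Psmf1 encodes an inhibitor, and the Psmg genes with Psmd5, Psmd9 and Psmd10 encode chaperones that help assembly and are not part of the finished particle.

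The sequences just upstream of 3 start sites show how members of different roles begin. Each is the 250 bases that precede the RefSeq start, in build GRCm38.p6, read 5′ to 3′ on the gene's own strand. They are shown for Psmb5, a constitutive catalytic subunit, for Psmb8, its immunoproteasome counterpart, and for Psmd4, the member with the greatest change in males. Psmb5 starts on the minus strand and its stretch is chr14:54617996-54618245. Psmb8 is on the plus strand at chr17:34197945-34198194, and Psmd4 on the minus strand at chr3:95042615-95042864. Capitals mark matches to any of 5 motifs on either strand, namely TGACNNNGC (antioxidant response element core), CCAAT (NF-Y box), TGTTTAC (FoxO site), TTCNNNGAA (interferon gamma activated site, GAS) and the interferon-stimulated response element (ISRE, a GAAA, any 2 bases and a second GAAA).
Psmb5: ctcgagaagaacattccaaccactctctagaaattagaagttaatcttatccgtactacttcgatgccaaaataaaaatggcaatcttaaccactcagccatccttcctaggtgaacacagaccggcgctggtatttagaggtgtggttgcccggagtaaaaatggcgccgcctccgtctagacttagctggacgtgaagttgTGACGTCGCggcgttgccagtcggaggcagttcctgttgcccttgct
Psmb8: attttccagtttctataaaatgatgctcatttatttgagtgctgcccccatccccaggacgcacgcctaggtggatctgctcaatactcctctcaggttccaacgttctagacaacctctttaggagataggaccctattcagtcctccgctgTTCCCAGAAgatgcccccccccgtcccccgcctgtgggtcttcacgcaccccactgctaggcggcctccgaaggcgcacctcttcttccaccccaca
Psmd4: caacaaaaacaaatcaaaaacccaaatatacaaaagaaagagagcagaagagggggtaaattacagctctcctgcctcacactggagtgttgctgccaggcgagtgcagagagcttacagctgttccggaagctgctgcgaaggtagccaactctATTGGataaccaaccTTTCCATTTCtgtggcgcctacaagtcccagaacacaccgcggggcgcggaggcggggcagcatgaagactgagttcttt
In Psmb5 the capitals are an antioxidant response element core, in Psmb8 a GAS, and in Psmd4 an NF-Y box followed by an ISRE, both read on the opposite strand. RefSeq windows from 250 bases before to 50 after the start were at hand for 40 of the 48 members. Among the 25 constitutive subunits with a window, 4 held the antioxidant response element core, against 12.4% of all 32851 windows, and 10 held an NF-Y box, against 37.4%. Of the same 25, no window held the FoxO site, 1 held a GAS and 2 held an ISRE, where the shares in all windows were 3.65%, 8.3% and 3.44%. A match is only a run of letters in this window, and these shares describe the promoters without a test.

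The libraries held between 26179971 and 47356612 counted reads. The 7 myofibre marker genes summed to between 126831 and 204672 counts per 1000000 (CPM) in the 24 libraries, so the markers of the labelled tissue were abundant. The lowest of these sums was that of LLC1 male 1-5. Of the 7, 2 fell and 0 rose in females, with a median log2 fold change of -0.12. In males 2 fell and 0 rose as well, with a median of -0.27. Over all genes 4.95% were called lower in females and 16.8% in males. The shares called higher were 4.97% in females and 19.5% in males. All 11 neutrophil markers rose with the tumour in both sexes. Their summed level was 3.41 to 9.33 CPM in vehicle mice and 66.1 to 187 in LLC1 mice. All 7 erythroid markers rose too, and LLC1 female 2-4 stood apart with a sum of 19989 CPM, where the other 5 LLC1 females lay at 1234 to 3164. Of 9 macrophage and monocyte markers tested, none passed in females and 1 rose in males. Of 5 B cell markers, none passed in females, and 3 rose and 1 fell in males. Of 6 endothelial markers, 2 rose in females, and 2 rose and 2 fell in males. Beside the shares over all genes, the macrophage and monocyte counts and the male endothelial counts are no result about those markers. The part of these cells in the results was not tested, and in whole muscle a change in the number of cells of a type cannot be told apart from a change in RNA per cell. The sequencing lane in the labels is the same within a group and different between groups, and the lane effect cannot be told apart from the group effect.

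The analysis tested 46 members. Psma8, the testis alpha subunit, had at most 4 counts in any library and Psmb11, the thymus beta subunit, at most 1, and neither passed the filter on low counts. Divided by gene length, the 31 constitutive subunits of the 26S particle among the members had a median group mean of 43.0 CPM per kilobase in vehicle males. In vehicle females it was 41.1. Psmd11 was lowest at 13.9 and Psmb7 highest at 156 in vehicle males. The immunoproteasome subunits stood far lower in that group, at 0.670 to 6.63 CPM per kilobase, and the chaperones of the core lay at 1.61 to 15.1. By length, the transcripts of the core in this muscle were mostly those of the constitutive subunits.

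In LLC1 males 35 of the 46 members rose and 1 fell at an adjusted p under 0.05 (edgeR's quasi-likelihood test, Benjamini-Hochberg adjustment over 17773 genes). Across all genes tested 36.3% were called in that comparison, 19.5% higher and 16.8% lower. In LLC1 females 2 members rose and 0 fell, while 9.92% of all genes were called (4.97% higher and 4.95% lower). The female count in this fit is therefore no result about the set. It was 12 when only the 2 female groups were fitted, where all genes called stayed within 1.5 times the 1763 of the main fit. The median log2 fold change of the 46 members was 0.51 in males and 0.13 in females, beside 0.01 and -0.01 for all genes. The change in males was divided by role: the 31 constitutive subunits all rose, with a median of 0.70. The 15 other members had a median of 0.02, with 4 higher, 1 lower and 10 not called. The symbol rule leaves out of the 31 the cap genes Adrm1, which rose in males, and Sem1, which was not called there. When the LLC1 effect was averaged over the sexes, 31 members rose and 3 fell, beside 41.5% of all genes called (21.2% higher and 20.2% lower). The 3 were Psmb10, Psme1 and Psme2, of which Psme1 was called in all 24 fits that left out 1 library, Psmb10 in 19 and Psme2 in 11.

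**Figure D1:**
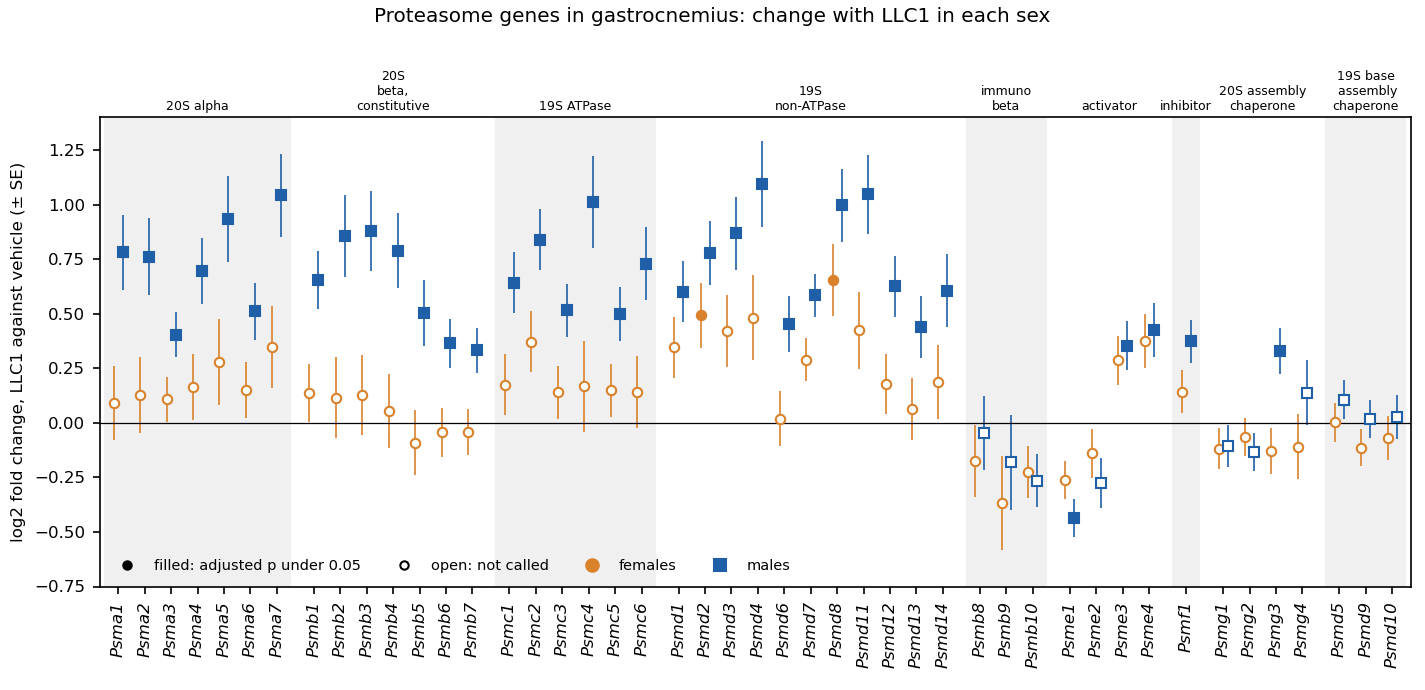
Log2 fold change of LLC1 against vehicle for the 46 members tested, by role, in females and males (edgeR estimate, bars of 1 SE). Constitutive subunits lie above 0 in males, from 0.33 for Psmb7 to 1.09 for Psmd4, the immunoproteasome subunits lie below 0 in both sexes, and the chaperones lie between -0.13 and 0.33 in males, with Psmg3 highest.

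The 7 alpha subunits of the core all rose in males, by a median of 0.76 on the log2 scale, and none was called in females, where the median was 0.15. Psma7 (chr2:180036373-180042433), an alpha ring subunit, changed most. It measured 67.2, 71.2 and 83.4 CPM (lowest, median, highest) in vehicle males and 88.3, 126 and 292 CPM in LLC1 males, with no overlap. In females it measured 64.4, 74.5 and 83.2 CPM in vehicle and 83.2, 94 and 104 CPM in LLC1 mice, so the female groups were just apart. The log2 fold change of Psma7 was 1.04 ± 0.19 (SE, adjusted p = 3.28e-04) in males and 0.35 ± 0.19 (adjusted p = 0.255) in females. Psma3, another alpha ring subunit, changed least of the 7 in males. Its levels were 122, 126 and 156 CPM in vehicle males and 136, 167 and 239 CPM in LLC1 males, which overlap, and the log2 fold change was 0.40 ± 0.10 (adjusted p = 0.00426).

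The 7 constitutive beta subunits rose in males as well, by a median of 0.66, and none was called in females, where the median was 0.06. Psmb3, a beta subunit without an active site, moved most, from 56.4, 62.3 and 70.7 CPM in vehicle males to 73.2, 96.7 and 237 CPM in LLC1 males. Its log2 fold change was 0.88 ± 0.18 (adjusted p = 0.00104), and no LLC1 male was below a vehicle male. The 3 catalytic subunits rose least of the beta group in males. Psmb5, the chymotrypsin-like subunit, was 77.2, 77.9 and 82.8 CPM in vehicle males and 86.4, 94.4 and 198 CPM in LLC1 males, again apart (log2 0.50 ± 0.15, adjusted p = 0.0118). Psmb6, the caspase-like subunit, went from 84.9, 93.2 and 104 CPM to 96.5, 110 and 175 CPM (0.36 ± 0.11, adjusted p = 0.0137). Psmb7, the trypsin-like subunit, went from 175, 188 and 218 CPM to 189, 226 and 340 CPM (0.33 ± 0.10, adjusted p = 0.0162). For Psmb6 and Psmb7 the male groups overlapped. In females the values of Psmb5, Psmb6 and Psmb7 were -0.09 ± 0.15, -0.04 ± 0.11 and -0.04 ± 0.10, none of them called. These 3 were the only constitutive subunits not called when both sexes were averaged. Without LLC1 male 1-5 the male log2 values were 0.55 for Psmb3 and 0.26 for Psmb5, both still called, and 0.22 for Psmb6 and 0.20 for Psmb7, whose calls were lost. The call for Psmb7 was also lost when only the 2 male groups were fitted (adjusted p = 0.0596).

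All 6 ATPases of the cap rose in males, by a median of 0.69, and none was called in females (median 0.16). Psmc4 (chr7:28041707-28050101), an ATPase of the base ring, measured 67.1, 71 and 80.8 CPM in vehicle males and 79, 127 and 300 CPM in LLC1 males. The lowest LLC1 male lay below the highest vehicle male, and the log2 fold change was 1.01 ± 0.21 (adjusted p = 9.83e-04), or 0.67 and still called without LLC1 male 1-5. Psmc5, the ATPase that moved least in males, went from 82.9, 99.1 and 112 CPM to 105, 130 and 211 CPM (0.50 ± 0.12, adjusted p = 0.00299).

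The 11 non-ATPase subunits of the cap held both members called in females. All 11 rose in males (median 0.63), and in females their median was 0.35. In 7 of the 11, every LLC1 female was above every vehicle female, although only 2 passed the adjusted test. Of all genes, 4.05% showed such a gap upward in females. Psmd8 (chr7:29174188-29180701), a lid subunit, measured 89, 118 and 143 CPM in vehicle females and 165, 186 and 197 CPM in LLC1 females, and the log2 fold change was 0.65 ± 0.17 (adjusted p = 0.0143). Psmd2 (chr16:20651652-20663414), a scaffold of the base that receives ubiquitin-like domains, measured 260, 281 and 305 CPM in vehicle females and 356, 393 and 447 CPM in LLC1 females, and the log2 fold change was 0.49 ± 0.15 (adjusted p = 0.0344). The female groups did not overlap for either gene. The Psmd2 call in females was lost on leaving out any 1 of 6 libraries, LLC1 1-5, 2-3 or 2-4 or vehicle 1-1, 1-3 or 2-1, with adjusted p from 0.0503 to 0.0643.

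Psmd4 (chr3:95032694-95042614), which encodes a ubiquitin receptor of the cap, had the greatest fold change of the members in males. It measured 96, 125 and 132 CPM in vehicle males and 144, 231 and 481 CPM in LLC1 males (1.09 ± 0.20, adjusted p = 2.82e-04), which do not overlap. In females it measured 104, 117 and 122 CPM and 135, 159 and 183 CPM, also apart, but the log2 value of 0.48 ± 0.19 was not called (adjusted p = 0.116). Psmd8 rose in males from 153, 192 and 220 CPM to 231, 351 and 607 CPM (1.00 ± 0.17, adjusted p = 1.52e-04). Psmd2 rose in males from 283, 338 and 381 CPM to 381, 536 and 960 CPM (0.78 ± 0.15, adjusted p = 4.17e-04). Psmd13, a lid subunit, moved least of this role in males, from 59, 65.8 and 72.8 CPM to 64.2, 79.5 and 156 CPM (0.44 ± 0.14, adjusted p = 0.0185), and its call was lost without LLC1 male 1-5 (0.21) and in the fit of the 2 male groups (adjusted p = 0.0747). In males 9 of the 46 members, all of them constitutive subunits, had every LLC1 mouse above every vehicle mouse, beside 4.96% of all genes. In females 10 of the 46 did, 9 of them constitutive subunits, beside 4.05% of all genes.

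**Figure D2:**
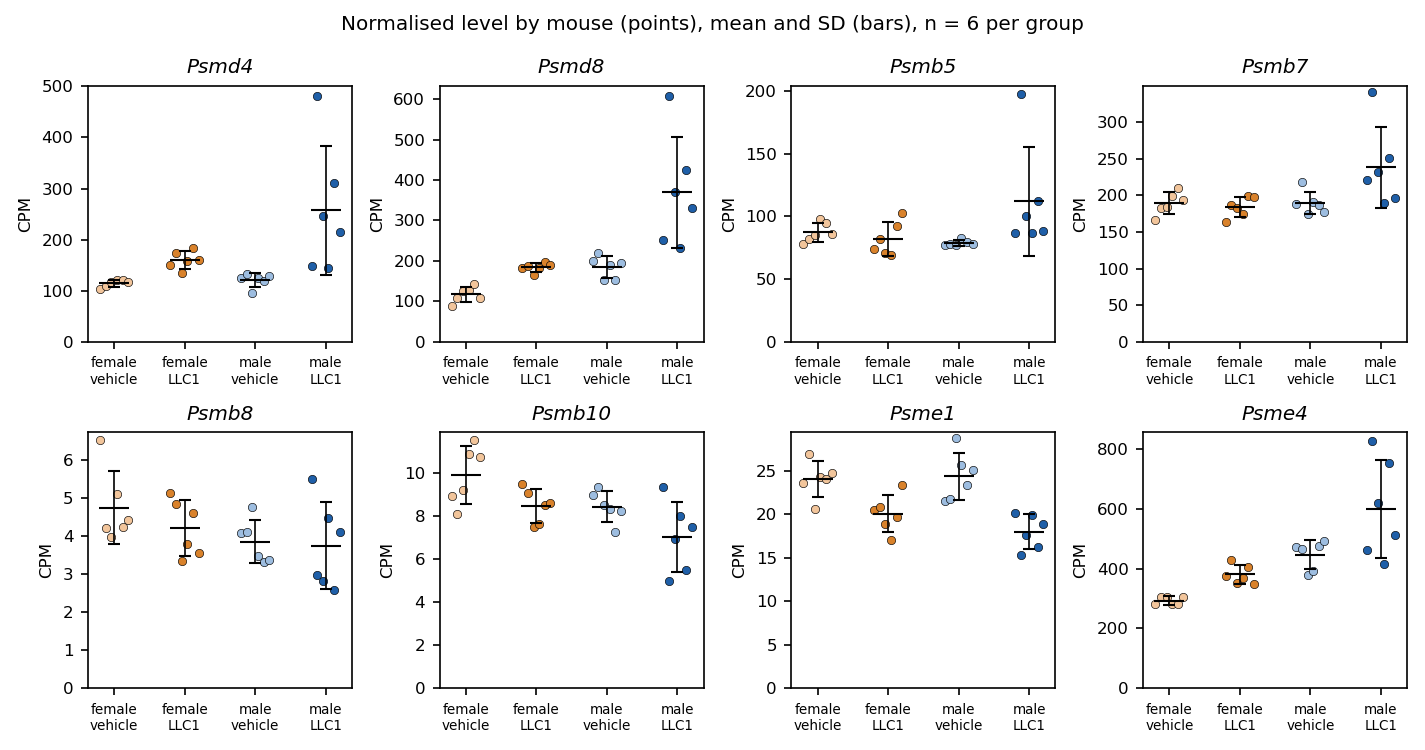
CPM of selected members in each of the 24 mice, by group; each point is 1 mouse, and the bars are the mean and SD of 6. Psmd4 spans 144 to 481 CPM in LLC1 males and 96 to 132 CPM in vehicle males, while Psmb8 stays between 2.59 and 6.52 CPM in all 4 groups.

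None of the 3 immunoproteasome subunits was called in either sex. Psmb8, which replaces Psmb5, measured 3.31, 3.79 and 4.77 CPM in vehicle males and 2.59, 3.54 and 5.51 CPM in LLC1 males (log2 -0.05 ± 0.17, adjusted p = 0.86). Psmb9, which replaces Psmb6, measured 1.56, 2.58 and 3.16 CPM and 1.43, 2.01 and 3.65 CPM (-0.18 ± 0.22, adjusted p = 0.545). Psmb10, which replaces Psmb7, measured 7.25, 8.41 and 9.32 CPM and 4.96, 7.2 and 9.35 CPM (-0.26 ± 0.12, adjusted p = 0.0942). In each of them the male groups overlapped. In females the log2 values were -0.17 ± 0.17, -0.37 ± 0.21 and -0.23 ± 0.12, each with overlapping groups. Averaged over the sexes Psmb10 fell by 0.24 ± 0.09 on the log2 scale (adjusted p = 0.0255), a call lost without LLC1 female 2-3, vehicle female 2-1, 2-2 or 2-3, or LLC1 male 2-4 (adjusted p from 0.0505 to 0.0584). Psmb8 shares 14.7% of its exon bases with Gm20496 on the opposite strand, and since the kit does not mark strand, reads of the pair cannot be told apart. Psmb9 shares 5.79% of its exon bases with Tap1, also on the opposite strand. Over all libraries Tap1 held 4318 counts and Psmb9 2087. Psmb5 shares 12.1% of its exon bases with Mir686 on its own strand.

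Set against its constitutive counterpart, each immunoproteasome subunit was read as a ratio of counts in the same library. Per 100 counts of Psmb5, vehicle males had 4.87 counts of Psmb8 and LLC1 males 3.40, and females had 5.40 and 5.14. Per 100 counts of Psmb7, vehicle males had 4.46 counts of Psmb10 and LLC1 males 2.95. The log2 ratio of Psmb10 to Psmb7 dropped by 0.60 in LLC1 males (two-sided exact permutation test, p = 0.0108, adjusted p = 0.0649 over 6 ratios, where the smallest p is 0.00216). The ratios of Psmb8 to Psmb5 and Psmb9 to Psmb6 were lower by 0.52 and 0.56 in LLC1 males, with adjusted p = 0.2 for both (exact permutation test). The 3 female ratios were lower by 0.07, 0.34 and 0.18, with adjusted p from 0.2 to 0.742 (exact permutation test). None of the 6 passed the adjusted threshold.

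LLC1 male 1-4 stood apart on immune markers. Its T and NK cell markers summed to 14.99 CPM and its B cell markers to 72.4 CPM, where the other 5 LLC1 males lay at 0.467 to 1.35 and 8.65 to 21.7 CPM. The vehicle males had 0.563 to 1.44 and 27.9 to 58.4 CPM. It was also the LLC1 male with the highest immunoproteasome median. Without it, Psmb10 fell in males by 0.36 (adjusted p = 0.0172) and Psme2 by 0.34 (adjusted p = 0.0194). The Psme2 call was not particular to that mouse. Psme2 was also called lower in males without vehicle female 1-4, vehicle female 2-2 or vehicle male 2-5 (edgeR, adjusted p from 0.0299 to 0.0422). The part of these cells in the values was not tested. The 12 genes of antigen presentation and interferon response tested beside them gave 0 higher and 0 lower in females, and 0 higher and 2 lower in males, among them the interferon-induced GTPase Gbp2 (log2 -0.46). With 16.8% of all genes called lower in males, that count is no result about the list.

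The activators of the core moved in different directions. Psme1 (chr14:55578123-55581529) encodes the alpha subunit of the interferon-inducible cap PA28. It measured 21.5, 24.3 and 28.7 CPM in vehicle males and 15.3, 18.2 and 20.1 CPM in LLC1 males, so every LLC1 male was below every vehicle male. Psme1 fell by 0.44 ± 0.09 in males (adjusted p = 6.18e-04) and was the single member called lower there. Of all genes 5.35% showed such a gap downward in males. In females Psme1 measured 20.7, 24.2 and 26.9 CPM and 17.1, 20.1 and 23.4 CPM (-0.26 ± 0.09, adjusted p = 0.0535), and it was called there with DESeq2 (adjusted p = 0.0371), in the fit of the 2 female groups (adjusted p = 0.0417) and in 5 of 24 fits without 1 library (LLC1 female 2-5, vehicle female 1-4, or LLC1 male 1-4, 1-5 or 2-2, adjusted p from 0.0221 to 0.0495). Its partner Psme2 had -0.28 ± 0.11 in males (adjusted p = 0.059) and -0.14 ± 0.11 in females (adjusted p = 0.466), and fell by 0.21 ± 0.08 when the sexes were averaged (adjusted p = 0.0392). That call was lost on leaving out any 1 of 13 libraries, with log2 values from -0.21 to -0.16 and adjusted p from 0.0515 to 0.0921, and with no filter on low counts (adjusted p = 0.0552). The 13 were LLC1 females 1-4, 2-3 and 2-5, vehicle females 1-3, 2-1, 2-2 and 2-3, LLC1 males 1-5, 2-1 and 2-4, and vehicle males 1-2, 1-3 and 1-4. The near-identical copy Psme2b held 2678 counts over all libraries, so the split of reads for Psme2 is uncertain.

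The other activators rose in males. Psme4 (chr11:30771726-30880361), which encodes the nuclear activator PA200, measured 378, 468 and 492 CPM in vehicle males and 417, 566 and 827 CPM in LLC1 males (0.42 ± 0.12, adjusted p = 0.00992), a call lost in the fit of the 2 male groups (adjusted p = 0.0504). In females it measured 280, 293 and 306 CPM and 350, 372 and 429 CPM, with no overlap, yet the log2 value of 0.38 ± 0.12 was not called (adjusted p = 0.0527). It was called in females with DESeq2 (adjusted p = 0.0307), limma-voom (adjusted p = 0.0483), the fit of the 2 female groups (adjusted p = 0.00198) and 7 of 24 fits without 1 library (LLC1 female 2-5, LLC1 male 1-4, 1-5, 2-1, 2-2 or 2-4, or vehicle male 1-3, adjusted p from 0.0200 to 0.0475). Psme4 was the most expressed activator per kilobase, at 53.2 CPM per kilobase in vehicle males. Psme3, which encodes the nuclear PA28 gamma, rose in males from 32.3, 38.9 and 41.1 CPM to 38, 49.1 and 62.9 CPM (0.35 ± 0.11, adjusted p = 0.0167), a call lost without LLC1 male 1-5. Psmf1, the core inhibitor, rose in males from 11.8, 13 and 13.9 CPM to 12.2, 16.6 and 21.8 CPM (0.37 ± 0.10, adjusted p = 0.00524). In females Psme3 and Psmf1 had 0.29 ± 0.11 and 0.14 ± 0.10, neither called.

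Of the 7 assembly chaperones, 1 was called in males and 0 in females, with medians of 0.03 and -0.11. Of all genes 36.3% were called in males and 9.92% in females, so with 7 genes these counts are no result about the chaperones. That 1 was Psmg3, a chaperone of the alpha ring, which went from 3.71, 4.81 and 5.08 CPM in vehicle males to 4.67, 5.8 and 7.27 CPM in LLC1 males (0.33 ± 0.11, adjusted p = 0.0175), and its call too was lost without LLC1 male 1-5. The alpha ring chaperones Psmg1 and Psmg2 had -0.11 ± 0.10 and -0.13 ± 0.09 in males, and Psmg4, the partner of Psmg3, had 0.14 ± 0.15. The base chaperones Psmd5, Psmd9 and Psmd10 had 0.11 ± 0.09, 0.02 ± 0.09 and 0.03 ± 0.10 in males. None of these 6 passed the test in either sex.

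The LLC1 males differed widely from each other. For each mouse the log2 ratio of each subunit to the vehicle mean of its sex was taken, and the median over the 31 constitutive subunits gave 0.09 in male 2-2, 0.26 in 1-4, 0.37 in 2-5, 0.71 in 2-1, 0.84 in 2-4 and 1.47 in 1-5. Vehicle males lay between -0.10 and 0.19, so male 2-2 was within the vehicle range. The LLC1 females lay between 0.05 and 0.27, a far narrower span, and vehicle females between -0.21 and 0.15. Vehicle females were divided by the first digit of the title number. Those numbered 1-1, 1-3 and 1-4 had -0.21, -0.06 and -0.03, and 2-1, 2-2 and 2-3 had 0.08, 0.15 and 0.06. No other group was divided by that digit. With the first digit as a block, the female median log2 fold change of the 31 was 0.15 and 2 members were called. LLC1 female 2-4, the mouse with the high erythroid sum, was highest of its group for 18 of the 31 subunits. The order was shared across subunits: male 1-5 was highest of the 6 for 31 of 31 subunits, male 2-4 was next for 30, and male 2-2 was lowest for 29. The same measure over the 3 immunoproteasome subunits was 0.04 in male 2-2, 0.53 in 1-4, 0.00 in 2-5, -0.44 in 2-1, -0.62 in 2-4 and -0.74 in 1-5. The 3 males with the highest constitutive medians were the 3 with the lowest immunoproteasome medians. The LLC1 females did not show this order: 2-4, 1-5 and 2-5, highest for the constitutive subunits at 0.27, 0.25 and 0.21, had -0.21, -0.01 and -0.40, while 2-1 had the lowest immunoproteasome median (-0.49) with 0.13. The 4 chaperones of the core had medians from -0.10 to 0.16 in the LLC1 males and the 3 of the cap from -0.06 to 0.27, with male 1-5 at 0.10 and 0.07.

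**Figure D3:**
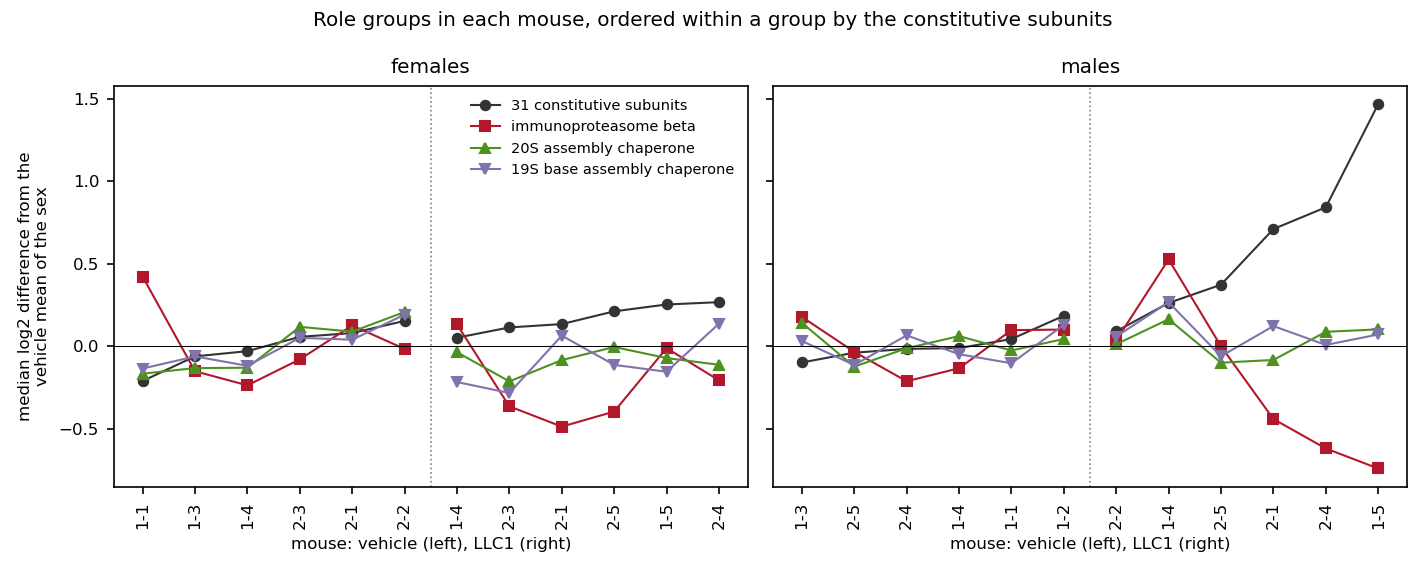
Median log2 ratio to the vehicle mean of the same sex for the 31 constitutive subunits, the immunoproteasome subunits and the 2 chaperone groups, 1 point per mouse, ordered within a group by the constitutive median. LLC1 males spread from 0.09 to 1.47 for the constitutive subunits, while LLC1 females lie between 0.05 and 0.27.

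As a share of all counts, the 48 members took 0.362% to 0.411% in vehicle males and 0.403% to 1.05% in LLC1 males. In females the share was 0.337% to 0.426% in vehicle and 0.403% to 0.50% in LLC1 mice. Each of the 4 constitutive roles had this spread in LLC1 males: the median per mouse ran from 0.04 to 1.61 for alpha, 0.13 to 1.33 for beta, 0.09 to 1.38 for ATPase and 0.13 to 1.43 for non-ATPase subunits. Without male 1-5, 28 of the 31 constitutive subunits were called in males, and their median log2 fold change dropped from 0.70 to 0.49. Over all genes, leaving out 1 library gave 4984 to 7154 calls in males, beside 6449 with all libraries.

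Whether the response differed between the sexes was tested as the interaction of LLC1 with sex. No member passed, 0% of all genes were called, and the lowest adjusted p of a member was 0.270 (edgeR). At an unadjusted p under 0.05, 23 of 46 members and 2191 of 17773 genes were found. DESeq2 and limma-voom called 0 members too. The log2 interaction (male effect minus female effect) was above 0 for all 31 constitutive subunits, with a median of 0.47 and a range from 0.26 for Psmd1 to 0.85 for Psmc4. Without LLC1 male 1-5 the median was 0.29. The difference in calls between males and females is therefore not a shown difference in response.

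Levels were also compared between the sexes. In vehicle mice 2 of 46 members were higher in males, Psmd8 (log2 0.66 ± 0.17, adjusted p = 0.0174) and Psme4 (0.61 ± 0.12, adjusted p = 0.00375), beside 6.23% of all genes called (3.28% higher), so the count is no result about the set. Every vehicle male was above every vehicle female for both genes, beside 2.49% of all genes. In LLC1 mice 24 members were higher in males and Psme2 was lower (log2 -0.37 ± 0.11, adjusted p = 0.0289; the call was lost without LLC1 female 1-4, 1-5 or 2-4 or LLC1 male 1-5, 2-1 or 2-4, adjusted p from 0.0502 to 0.0746), beside 15.7% of all genes called (9.62% higher and 6.07% lower). Psmd8 alone had every LLC1 male above every LLC1 female, beside 1.87% of all genes. The 24 included 23 of the 31 constitutive subunits. The LLC1 count rested on few libraries: 11 members were called without LLC1 male 1-5, 15 without LLC1 male 2-4 and 14 without LLC1 female 1-4. All genes called fell as well, from 2787 to 1638, 1606 and 1815 in that order, so the loss was not confined to the members. When only the 2 LLC1 groups were fitted, 3 members and 966 of all genes were called.

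Genes that work with the proteasome were read from a list of 25, of which 24 were tested. In males 17 rose and 0 fell, with a median of 0.46, beside 19.5% of all genes called higher. In females 1 rose and 0 fell, with a median of 0.18, and with 4.97% of all genes called higher that count is no result about the list. Ddi2, the protease that activates the proteasome gene regulator Nfe2l1, rose in both, by 0.98 in males and by 0.51 in females (adjusted p = 0.0412). In males Nploc4, a cofactor of the segregase p97, rose by 1.21, Txnl1, a thioredoxin of the cap, by 0.80, and Adrm1, a ubiquitin receptor of the cap, by 0.77. The shuttle factors Ubqln1 and Rad23b rose by 0.72 and 0.70 in males, and Usp14, a deubiquitinase of the cap, by 0.72. The zinc finger proteins Zfand5 and Zfand2a, which bind the proteasome, each rose by 0.75, and Akirin2, which acts in its nuclear import, by 0.59. Ufd1, Ubqln2, Ngly1, Ecpas, Tpp2 and Vcp rose in males by 0.33 to 0.54. The 7 not called in males were Ube3c, Ubqln4, Fbxo7 and 4 others. Nfe2l1 itself had log2 0.14, Pomp, the maturation factor of the core, 0.17, Sem1, a small lid subunit, -0.01, and Uchl5, a deubiquitinase, 0.03.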

How the data were processed

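Poly(A) RNA of gastrocnemius muscle from 24 mice was sequenced. The authors deposited raw read counts per gene, with gene length. The notes name CASAVA, STAR and featureCounts with genome build mm10, per the submitters' processing notes, which carry no versions. The library kit does not mark strand, per the labels' protocols.

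Genes were filtered with filterByExpr, which left 17773, and scaled by TMM (factors 0.924 to 1.10). A model of 4 group means over 24 libraries (20 residual degrees of freedom) was tested with edgeR 4.0.16's robust quasi-likelihood test in R 4.3.3, with Benjamini-Hochberg adjustment over all genes tested and a threshold of 0.05. CPM values are counts per 1000000 of the TMM-scaled library. Ratios of counts used an offset of 0.5. The script was tested on simulated data. Alternatives used limma 3.58.1, DESeq2 1.42.0, other scaling and filters, fits of 2 groups, replicate blocks and leaving out each library. Members named are the first and last of each role by male fold change, the members called in females, the catalytic and immunoproteasome subunits, and all activators, inhibitors and chaperones. The members and lists were chosen with earlier results of these data known. Promoters are RefSeq sequences, and their motifs were searched on both strands. Some genes of the lists beside the members are counted, and their values are not reported here.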

Additional observations from a re-analysis of the deposited data

Results flagged for a closer look

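In 17 of 184 sets of 6 values (1 member in 1 group), or 9.24%, the highest or lowest mouse lay farther from the next than Dixon's 95% critical value of 0.625 of the group's range allows. Chance flags about 1 in 20 such sets, and members share mice, so the sets are not independent. LLC1 male 1-5 was the high mouse in 8 sets, with 194 CPM for Psma2, 172 for Psmb2, 237 for Psmb3, 284.0 for Psmb4, 197.5 for Psmb5, 175 for Psmb6, 299.5 for Psmc4 and 155.8 for Psmd13. Vehicle male 1-2 was the high mouse in 5 sets, with 68.1 CPM for Psma2, 61.3 for Psma5, 217.9 for Psmb7, 80.8 for Psmc4 and 18.7 for Psmg2. The remaining 4 sets were Psmd3 at a low 96.8 CPM in LLC1 female 2-1, Psmd4 at a low 96.05 CPM in vehicle male 1-3, Psmd6 at a low 115.1 CPM in vehicle female 1-1 and Psme3 at a high 64.7 CPM in LLC1 female 2-4.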

How the results depend on the processing

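Members called in females (2) became 5 with DESeq2 and 12 when only the 2 female groups were fitted. On leaving out 1 library they were 1 to 11, with 11 without LLC1 male 1-5. Constitutive subunits made up 3 of the 5, 10 of the 12 and 9 of the 11. With DESeq2, in the fit of the 2 female groups and without LLC1 male 1-5, all genes called in females stayed within 1.5 times the 1763 of the main fit. They fell further, to 919 without LLC1 female 2-3 and to 1100 without vehicle female 2-1. The main fit shares 1 estimate of the spread over all 4 groups, the LLC1 males included. Members called in males (36) ranged from 31 to 38, averaged over the sexes (34) from 30 to 35, and between LLC1 males and females (25) from 11 to 34, with 3 in the fit of 2 groups. Over all genes, leaving out 1 library gave 919 to 2283 calls in females, 659 to 1476 between vehicle sexes, 1606 to 3724 between LLC1 sexes (966 in the fit of 2 groups) and 0 to 7 for the interaction, where DESeq2 gave 44. RLE scaling, limma-voom and no filter on low counts kept each of these counts within 1.5 times its value.

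In 6 cases an LLC1 and a vehicle mouse of the same sex share a title number. Their deviations from the group means, over all genes tested, had correlations from -0.167 to 0.0630. Numbers shared between the sexes and the first digit were not examined in this way. These values therefore do not settle whether title numbers group the mice. With the full number as a replicate block, members called became 0 in females, 25 in males, 11 averaged over the sexes and 1 between vehicle sexes, and all genes 480, 3607, 3526 and 269. With the first digit as a block the interaction gave 6 genes. The female values of Psmd8 and Psmd2 under the full block were 0.46 and 0.28, neither called. The median log2 fold change of the 31 constitutive subunits under that block was -0.02 in females (0.15 without it), 0.54 in males and 0.25 averaged over the sexes (0.43 without it). The male call for Psmb5 (0.31, adjusted p = 0.187) and the averaged calls for Psmb10 (adjusted p = 0.171) and Psme2 (adjusted p = 0.30, or 0.0615 with the first digit) were lost. The cause of these changes was not tested.

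The log2 ratio of Psmb10 to Psmb7 ranged from -0.25 to -0.15 in females and from -0.70 to -0.39 in males on leaving out 1 library. It passed its test without LLC1 female 1-4, and in males without LLC1 1-4 or 2-2. The female ratio of Psmb8 to Psmb5 ranged from -0.16 to 0.058.

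Log2 values near 0 changed sign. On leaving out 1 library, the female range was -0.11 to 0.0082 for Psmb6, -0.064 to 0.011 for Psmb7, -0.20 to 0.0098 for Psmg4, -0.039 to 0.074 for Psmd5 and -0.11 to 0.028 for Psmd10, and the male range was -0.19 to 0.043 for Psmb8, -0.010 to 0.061 for Psmd9 and -0.027 to 0.057 for Psmd10. Psmd5 in females was -0.0031 with limma-voom. Under the full and the first-digit replicate block, male values were 0.11 and 0.042 for Psmb8, -0.019 and -0.019 for Psmd9, and -0.022 and -0.0016 for Psmd10, and Psmb9 was 0.014 under the full block.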
